A study of Mus musculus with 1049 samples.

Results

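Acta2, Tagln, Myl9, Tpm1, Tpm2, Actn1, Cnn2, Cnn3 and Cald1 are genes of the contractile actin and myosin machinery, taken here by their symbols. All 9 were found among the 51777 genes counted on every plate of a study of single mouse dermal fibroblasts. They are also among the 16684 genes that passed the filter on low counts and were tested, Actn1 through its newborn reads alone.

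The cells came from the skin of C57Bl/6 mice of 3 ages, with no genotype or treatment named beside age. Animals called newborn had an age of 1.5 or 2.5 days, those called young an age of 2 months and those called old an age of 18 months. Subdermis and patches of growing hair were removed before digestion. Cells were stained for CD45, CD117, EpCam, CD31, CD34 and Pdgfra, sorted singly into wells and sequenced with Smart-seq2, which reads polyadenylated RNA along its length without molecular identifiers. No mice are identified in the labels, which give 2 experiments, and the unit compared was the sum of reads over the cells of 1 age in 1 experiment, n = 2 sums per age. P-values therefore measure only the spread between 2 experiments. The 735 cells kept were 249 newborn, 246 young and 240 old cells on 9 plates that each held all 3 ages. Cells held 246349 to 4331293 reads and the 6 sums 119682449 to 195324769 reads. Levels are counts per 1000000 (CPM), scaled with TMM factors, and are given in the order experiment 1, then experiment 2.

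Non-muscle cells pull on their surroundings when myosin filaments slide along actin filaments, a motion switched on by phosphorylation of the myosin light chain and steered by tropomyosin, caldesmon and calponin along the actin filament. Acta2, Tagln and several of the other genes are abundant in smooth muscle and are taken up by fibroblasts that turn into contractile myofibroblasts during wound closure and scarring. Serum response factor (SRF), which binds the CArG box in the promoters of many such genes together with myocardin or the related MRTF proteins, is their best known regulator.

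Promoters are shown for the members with an exact CArG box or 2 boxes with 1 mismatch, because many such genes are known to carry this site. RefSeq (GRCm38.p6) gave promoter windows, 250 bases before to 50 after a start site, for 8 of the 9 members and none for Tagln. The 10-base CArG box was searched on both strands, on which it reads alike. An exact box stood in 1.63% of 32851 windows of all genes and a box with at most 1 mismatch in 21.1%. Of the 8 members, Myl9 and Cnn2 had an exact box, and Acta2, Tpm1 and Cald1 had boxes with 1 mismatch only. Cnn3, Tpm2 and Actn1 had no box of either kind. The 250 bases before the start site follow, 5′ to 3′ along the gene, with every box of at most 1 mismatch in capitals.
Acta2, chr19:34255374-34255623 on the minus strand: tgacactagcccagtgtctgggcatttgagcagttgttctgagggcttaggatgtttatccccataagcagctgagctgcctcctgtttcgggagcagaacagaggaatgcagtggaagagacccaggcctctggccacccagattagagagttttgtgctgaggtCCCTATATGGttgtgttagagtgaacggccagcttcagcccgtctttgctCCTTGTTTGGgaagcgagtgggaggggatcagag
Myl9, chr2:156775214-156775463 on the plus strand: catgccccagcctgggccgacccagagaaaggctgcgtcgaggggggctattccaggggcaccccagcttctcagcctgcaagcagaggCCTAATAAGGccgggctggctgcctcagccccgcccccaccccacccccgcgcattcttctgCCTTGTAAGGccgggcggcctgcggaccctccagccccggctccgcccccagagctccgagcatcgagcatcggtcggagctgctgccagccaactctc
Tpm1, chr9:67049214-67049463 on the minus strand: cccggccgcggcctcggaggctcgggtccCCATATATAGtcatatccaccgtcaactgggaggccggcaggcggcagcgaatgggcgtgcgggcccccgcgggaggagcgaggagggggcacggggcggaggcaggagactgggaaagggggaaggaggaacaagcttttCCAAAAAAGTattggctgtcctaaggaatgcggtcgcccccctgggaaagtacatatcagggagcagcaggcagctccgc
Cnn2, chr10:79988350-79988599 on the plus strand: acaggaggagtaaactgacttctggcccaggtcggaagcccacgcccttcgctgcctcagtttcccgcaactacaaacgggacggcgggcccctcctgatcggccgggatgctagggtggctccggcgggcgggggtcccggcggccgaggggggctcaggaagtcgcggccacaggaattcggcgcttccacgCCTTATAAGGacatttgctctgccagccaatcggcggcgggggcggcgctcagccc
The exact boxes lay 161 bases before the Myl9 start site (CCTAATAAGG) and 56 before that of Cnn2 (CCTTATAAGG). Those of Acta2 lay 84 and 34 bases before its start site (CCCTATATGG and CCTTGTTTGG). Binding was not measured here, so a match describes the letters only. Start sites are those of RefSeq. The gene positions given below are from GENCODE and reach further upstream, so the windows printed overlap them.

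Fibroblast markers were abundant in all sums. Col1a1, Col1a2, Col3a1, Dcn and Lum, matrix genes of fibroblasts, were read in every one of the 16 cells that had an Acta2 read. Single fibroblast markers differed with age in both directions: Dcn stood at 13908 to 17366 CPM in newborn and 104174 to 116229 CPM in adult sums, whereas Col3a1 was at 26592 and 23120 CPM in newborn and 3613 and 3270 CPM in old sums. Of the 8 markers 4 had a log2 fold change below 0 from newborn to old, with 1 called lower and 1 higher. Of 12 markers of smooth muscle and pericytes, the mural cells of vessels, Rgs5, Higd1b and Lmod1 had 0 reads in all sums and Myh11, smooth-muscle myosin, had a read in 1 sum only (0.056 CPM, newborn, experiment 2). The summed level of the 12 was 22.6 and 57.2 CPM in newborn sums, 117 and 175 CPM in young ones and 106 and 71.2 CPM in old ones, most of it in adults from Kcnj8 and Abcc9. The skeletal muscle genes Myh1, Myh4, Pax7, Myod1 and Myf5 had 0 reads. The summed level of 8 markers of hair follicle dermal sheath and papilla was higher in newborn sums, at 187 and 339 CPM, than in young ones (56.8 and 151 CPM) or old ones (103 and 122 CPM), with Corin and Sox2 at 0. That of 7 immune markers was 2.10 and 0 CPM in newborn sums, 243 and 80.3 CPM in young ones and 122 and 175 CPM in old ones, with Ptprc and Cd3e at 0 and Ighm, at 0 in newborn sums, called higher at both adult ages. The summed endothelial and keratinocyte markers stayed at or below 82.0 CPM in every sum. Genes per cell differed with age too: at 100000 reads per cell the median was 1792 and 2205 genes in newborn cells, 1635 and 2035.5 in young ones and 1503.5 and 1709.5 in old ones. The part of these marker and gene number differences in the results below was not tested.

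Reads of most of these genes made up more of the newborn than of the adult sums, but only Myl9, a regulatory light chain of myosin, passed the test across all genes. Relative to newborn sums it was called lower at both adult ages. For 8 of the 9 genes, all but Tpm1, both newborn sums lay above both young sums, as they did for 25.1% of all tested genes, and above both old sums (25.7% of tested genes). Without Actn1, which could pass the filter only by being high in newborn sums, these were 7 of 8. No member was called between old and young sums.

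**Figure D1:**
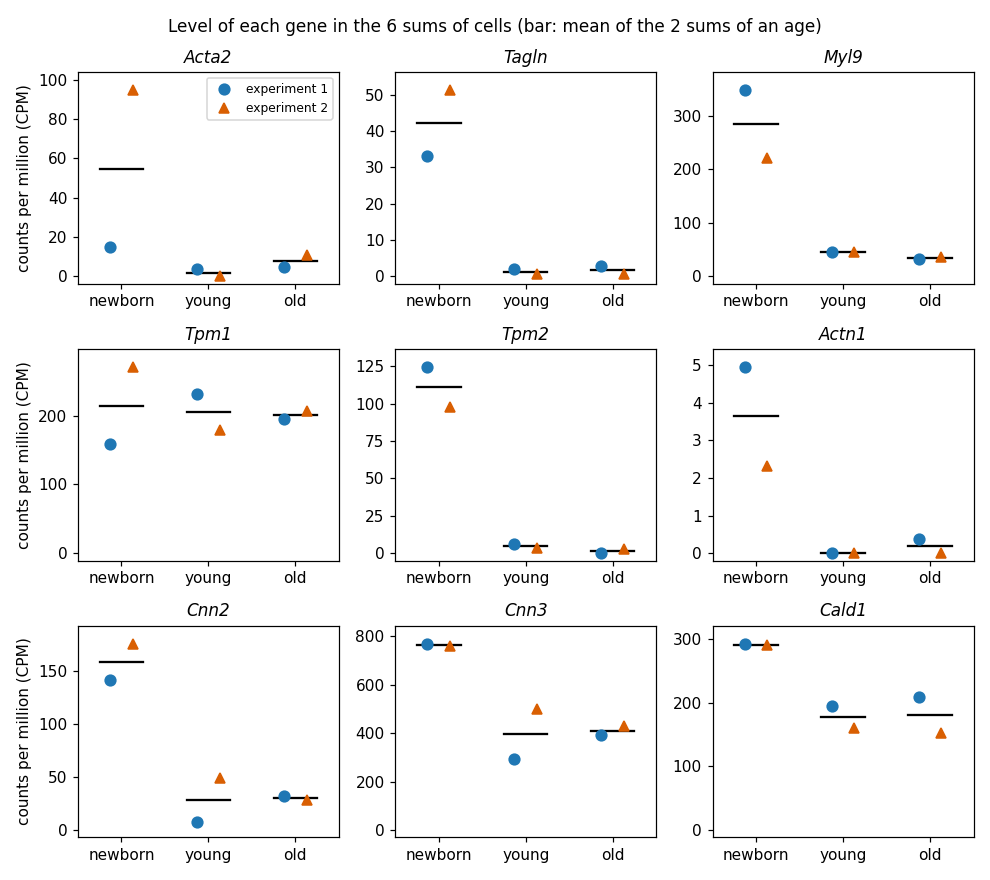
Level of each gene in CPM (vertical axis, linear, own scale per panel) in the newborn, young and old sums of experiment 1 (circles) and experiment 2 (triangles), with the mean of each age as a bar. For Myl9 the newborn points (347 and 221 CPM) stand far above the 4 adult points (32.7 to 45.5 CPM), while the 6 points of Tpm1 overlap.

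Myl9 (chromosome 2, 156775420 to 156781658, GRCm38, GENCODE M21) encodes the light chain whose phosphorylation switches smooth and non-muscle myosin on. It was at 347 and 221 CPM in newborn, 45.5 and 45.3 CPM in young ones and 32.7 and 35.4 CPM in old sums. The newborn mean was 6.25 times the young mean and 8.34 times the old mean, and the groups did not overlap. Its log2 fold change was -2.64 ± 0.31 (SE) from newborn to young (edgeR quasi-likelihood test, adjusted p = 0.0468) and -3.06 ± 0.32 from newborn to old (adjusted p = 0.0326). Young sums lay above old sums in both experiments, with a log2 fold change of -0.42 ± 0.30 (edgeR adjusted p = 0.951). Both calls rest on all 6 sums. Without any single sum the adjusted p ranged from 0.0776 to 0.283 for young and from 0.0607 to 0.212 for old cells, and with experiment as a replicate block it was 0.115 and 0.0891, with fold changes between -2.28 and -3.35.

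Acta2 (chromosome 19, 34241090 to 34255590), smooth-muscle actin, is the gene that defines myofibroblasts. It was at 14.7 and 94.7 CPM in newborn, 3.67 and 0 CPM in young ones and 4.62 and 10.8 CPM in old sums. All newborn sums were higher than all adult sums, yet the 2 newborn sums lay further apart than any adult sum lay from the lower of them. The log2 fold change was -4.90 ± 2.73 to young (edgeR adjusted p = 0.546) and -2.83 ± 2.48 to old (edgeR adjusted p = 0.705). Single sums moved these values: without the young sum of experiment 1 the first was -16.1, and without the newborn sum of experiment 2 the second was -0.93. For the count of 0 in young cells of experiment 2, a floor of 3 reads would be 0.0225 CPM. It is no upper limit, since reads come many to a cell, such as 558 in 1 young cell of experiment 1. With a read in 0 of 104 cells, a share of up to 2.88% of cells is allowed (counting error only).

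Tagln (chromosome 9, 45929619 to 45936058) encodes transgelin, a calponin-related protein that bundles actin in smooth muscle. Its level was 33.2 and 51.2 CPM in newborn, 2.01 and 0.599 CPM in young ones and 2.71 and 0.651 CPM in old sums. Newborn sums stood at 16.6 and 85.4 times the young sum of their experiment and at 12.3 and 78.6 times the old one. With a log2 fold change of -5.02 ± 1.22 to young and -4.65 ± 1.20 to old, the edgeR adjusted p was 0.209 and 0.203. Tagln exons overlap those of Pcsk7 and Gm48529 on the opposite strand, and the strand setting of the counting is unstated, so its reads cannot be fully told apart from theirs. Pcsk7 was at 9.97 and 23.5 CPM in newborn and 3.32 to 11.3 CPM in adult sums.

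Tropomyosins wind along actin filaments and set which myosins can bind. Tpm2 lies on chromosome 4, 43514711 to 43523765, and Tpm1 on chromosome 9, 67022590 to 67049406. Tpm2 was at 124 and 98.1 CPM in newborn, 6.06 and 3.40 CPM in young ones and 0 and 2.59 CPM in old sums, without overlap between any of the ages. Its log2 fold change was -4.56 ± 2.29 to young (edgeR adjusted p = 0.496) and -6.42 ± 2.50 to old (edgeR adjusted p = 0.328). Tpm1 was at 158 and 270 CPM in newborn, 231 and 179 CPM in young ones and 195 and 206 CPM in old sums. All 3 ages overlapped, and its log2 fold changes of -0.06 ± 0.33 and -0.10 ± 0.33 were far from the threshold (edgeR adjusted p = 0.982 and 0.963). Without the newborn sum of experiment 2 both turned positive, at 0.38 and 0.34. A direct test of Tpm1 against Tpm2 was not run.

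Actn1 (chromosome 12, 80167547 to 80260371), alpha-actinin-1, crosslinks actin filaments in stress fibres and at adhesions. It had the lowest newborn level per kilobase of the 9 and was at 4.95 and 2.33 CPM in newborn sums, 0 and 0 CPM in young ones and 0.366 and 0 CPM in old sums. The newborn mean was 347-fold higher than a floor of 3 reads over both young sums (0.0105 CPM). Its counts came in steps of 2, and over a floor of 3 such steps, 6 reads, it was 174-fold higher. Neither value is a lower bound on the difference, since reads come many to a cell. The old reads, 54, all came from 1 cell. In young cells 0 of 142 and 0 of 104 had a read, which allows shares of up to 2.11% and 2.88% (counting error only). The edgeR adjusted p was 0.376 for young and 0.634 for old against newborn cells. Its exons overlap those of Gm47767 and Gm47766 on the opposite strand.

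Calponins bind actin and slow the myosin motor, and Cnn2 (chromosome 10, 79988584 to 79996062) and Cnn3 (chromosome 3, 121426497 to 121458207) are the forms made outside smooth muscle. Cnn2 was at 141 and 175 CPM in newborn, 7.32 and 48.5 CPM in young ones and 32.2 and 28.3 CPM in old sums, with young and old overlapping. In the young sum of experiment 1 a single cell held 90.1% of the Cnn2 reads, and without it the level was 0.721 CPM. Its log2 fold changes were -2.50 ± 0.90 and -2.39 ± 0.89 (edgeR adjusted p = 0.334 and 0.309). Cnn3 was at 768 and 762 CPM in newborn, 295 and 498 CPM in young ones and 393 and 428 CPM in old sums. Its newborn mean was 1.93 times the young and 1.86 times the old mean (log2 fold changes -0.95 ± 0.30 and -0.90 ± 0.30, edgeR adjusted p = 0.270 and 0.254). Its exons overlap those of Gm42928 on the opposite strand, a gene at 4.62 to 12.2 CPM in the 6 sums.

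Cald1 (chromosome 6, 34598500 to 34775473), caldesmon, which ties myosin to actin and blocks its motor, was at 292 and 290 CPM in newborn, 194 and 160 CPM in young ones and 209 and 153 CPM in old sums. Its newborn mean was 1.64 and 1.61 times the adult means, with log2 fold changes of -0.72 ± 0.25 and -0.69 ± 0.25 (edgeR adjusted p = 0.323 and 0.299). The groups did not overlap between newborn and adult sums, while young and old did.

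Against all genes, edgeR called 1 of the 9 members lower from newborn to young, where 0.0599% of tested genes were called lower, and 0 of 9 higher (0.719% of tested genes). In old against newborn sums it called 1 lower (0.138%) and 0 higher (0.797%). With experiment as a replicate block, 25 and 51 genes and 0 members were called in place of 130 and 156 genes and 1 member. Actn1 is left out of the counts that follow, since it passed the filter only through the group in which it is high. At an unadjusted p under 0.05, 5 of the other 8 members were lower in young sums (6.15% of tested genes), namely Tagln, Myl9, Cnn2, Cnn3 and Cald1. In old sums 6 were lower, these and Tpm2 (7.93%). The median log2 fold change of the 8 was -2.57 and -2.61, beside -0.07 and -0.08 over all tested genes. Both comparisons share the newborn sums. Other tools called more members. DESeq2 called 5 of the 8 lower in young and 6 in old sums, beside 6.14% of tested genes lower in young and 8.43% lower in old sums, and 0 higher (8.12% and 8.65%). Limma on the mean log2(CPM + 1) of the cells called 6 lower in each (4.47% and 6.83%). Between old and young sums edgeR called 0 members and 0 of 16684 genes (0%), with 810 genes and 0 members at an unadjusted p under 0.05 (3.03% of tested genes lower). DESeq2 called 0 members there, 398 genes higher (2.39%) and 650 lower (3.90%), and limma 0 members, 1 gene higher (0.00599%) and 4 lower (0.0240%). The log2 fold changes from young to old were within ± 0.42 for Tagln, Myl9, Tpm1, Cnn2, Cnn3 and Cald1. They were 2.07 ± 2.41 for Acta2 and -1.86 ± 2.04 for Tpm2 (edgeR adjusted p = 1 for both). Acta2 had both old sums above both young ones (15.0% of tested genes), Myl9 and Tpm2 had them below (15.9%), and the other 6 members overlapped.

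Per kilobase of exon the order of the members changed with age. Exon length counts all annotated exons of a gene, 12041 bases for Cald1 and 1162 for Myl9. A gene of which cells use only some exons is thus set too low. In newborn sums Cnn3 (253 and 251 CPM per kb) and Myl9 (299 and 190) led, and their ranges overlapped. Cnn2 followed at 57.5 and 71.1 CPM per kb, then Tpm2, Tpm1, Acta2, Cald1 and Tagln, with means of 38.3 down to 21.2 CPM per kb, and each of these overlapped its neighbour in the order. Actn1 came last with a mean of 0.658. In young and old sums Cnn3 stood alone at the top (97.0 to 164 CPM per kb). Myl9 and Tpm1 came next, at 39.1 and 31.7 CPM per kb in young and 29.3 and 30.9 in old sums, overlapping each other in old ones. Cald1 and Cnn2 stood at 14.7 and 11.4 CPM per kb in young and at 15.0 and 12.3 in old sums, also overlapping, and the means of Acta2, Tagln, Tpm2 and Actn1 were all at or below 3.51 CPM per kb.

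Most members were read in a larger share of newborn than of adult cells. To compare cells of unequal depth, each cell was thinned at random to 100000 reads. Reads of Myl9 were then found in 50.6% of 158 and 44.0% of 91 newborn cells, in 12.0% of 142 and 17.3% of 104 young cells and in 5.56% of 126 and 8.77% of 114 old cells. The exact binomial 95% interval of the lowest newborn share was 33.6% to 54.8% and that of the highest adult share 10.6% to 26.0%. Intervals cover counting error only. For Tpm2 the shares were 36.1% and 47.3% in newborn cells, 1.41% and 0.962% in young ones and 0% and 0.877% in old ones. The interval for 0 of 126 old cells ends at 2.89%. Tagln reads were found in 15.2% and 25.3% of newborn cells and in at most 1.75% of the cells of any adult sum.

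**Figure D2:**
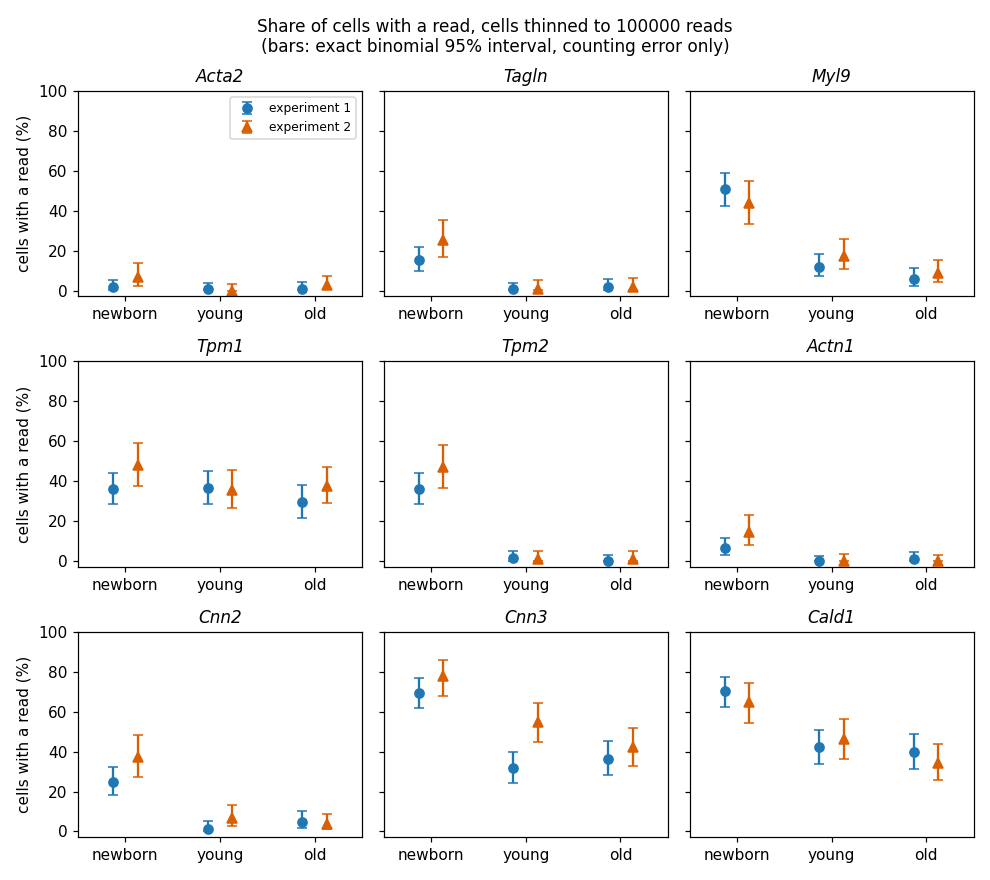
Percent of cells with at least 1 read of each gene (vertical axis, 0 to 100) after thinning to 100000 reads, by age and experiment, with exact binomial 95% intervals. The newborn points of Myl9, Tpm2, Tagln and Cnn2 stand above all adult points, whereas those of Tpm1 lie between 29.4% and 48.4% at all ages.

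Cnn2 reads were found in 24.7% and 37.4% of newborn cells, 1.41% and 6.73% of young cells and 4.76% and 3.51% of old ones. Cnn3 and Cald1 were widespread in adults too. Cnn3 reads were found in 69.6% and 78.0% of newborn cells, 31.7% and 54.8% of young cells and 36.5% and 42.1% of old ones, and Cald1 in 70.3% and 64.8%, 42.3% and 46.2%, and 39.7% and 34.2%. Tpm1 overlapped between the ages, at 36.1% and 48.4%, 36.6% and 35.6%, and 29.4% and 37.7%. Actn1 had reads in 6.33% and 14.3% of newborn cells, in no young cell and in 1 old cell. Acta2 was rare at every age, at 1.90% and 6.59% of newborn cells, 0.704% and 0% of young cells and 0.794% and 2.63% of old ones. For 8 members, or 7 of 8 without Actn1, both newborn shares lay above both young ones, as for 33.1% of all tested genes. For 7 members, or 6 of 8, they lay above both old ones (42.1% of tested genes). The exceptions were Tpm1 in both comparisons and Acta2 against old cells. Between young and old cells, both old shares were above both young ones for Acta2 and Tagln (8.38% of tested genes) and below them for Myl9, Tpm2 and Cald1 (21.3%).

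Cells with a read mostly differed less between ages in how many reads they had, with exceptions against young cells in experiment 2. The median reads of Tpm1 in such cells were 43 in newborn, 40 in young and 46.5 in old cells (of 100000 reads per cell). Those of Cnn3 were 102, 65 and 89, those of Cald1 37.5, 27 and 29, and those of Myl9 55.5, 29 and 49. The medians of these 4 genes over both experiments thus differed by less than a factor of 2 between ages. In experiment 2 alone those of Myl9 were 37 in newborn and 18 in young cells. Against old cells of the same experiment, the share of newborn cells with a Myl9 read was 9.11 and 5.01 times as high, and the mean reads of such cells 1.27 and 2.12 times. For Cnn3 these ratios were 1.91 and 1.85 for the share and 1.21 and 1.10 for the reads, and for Cald1 1.77 and 1.90 for the share and 1.20 and 1.61 for the reads. The share was the larger part of the difference from old cells for all 3 genes in both experiments. Against young cells this held in experiment 1 only: for Myl9 the share was 4.23 and 2.54 times as high in newborn cells and the mean reads 1.90 and 2.94 times. For Cnn3 the share ratios were 2.20 and 1.42 and the read ratios 1.55 and 1.44, and for Cald1 1.66 and 1.40 beside 1.23 and 2.17.

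**Figure D3:**
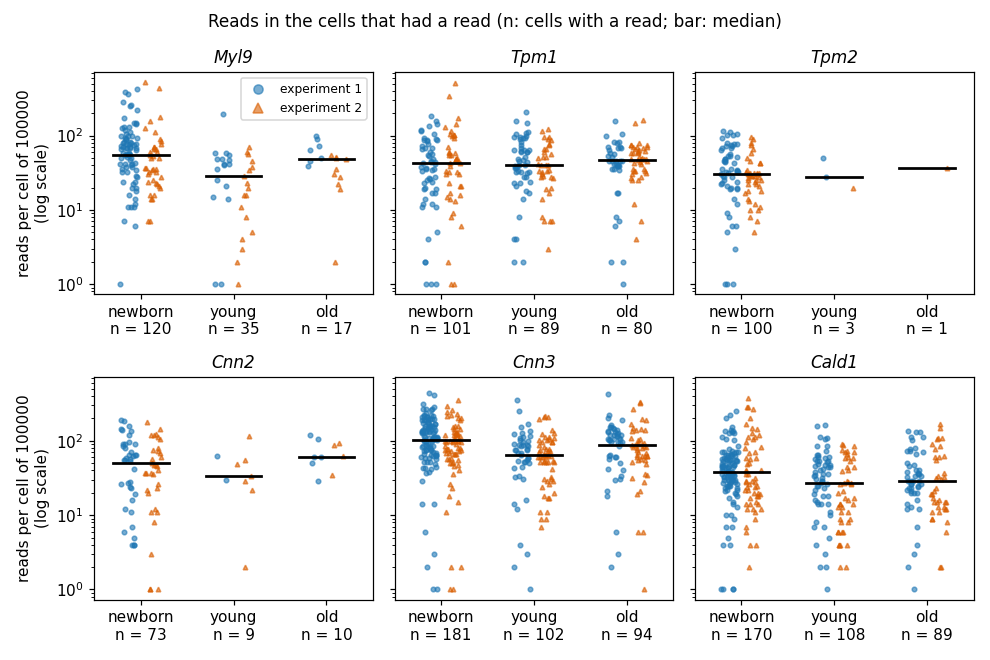
Reads per cell, of 100000, in the cells that had a read (vertical axis, log scale) for 6 genes by age, 1 point per cell and a bar at the median, with the number of such cells under each age. For Tpm2 100 newborn cells face 3 young and 1 old cell, yet these few lie inside the newborn range.

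Adult reads of several members came largely from single cells. The Tagln reads of each young sum came from 1 cell, with 306 and 80 reads, and 83.2% and 98.3% of the old ones from the cell with the most. The young Tagln cell of experiment 2 also had reads of at least 2 of 8 mural markers. All adult Actn1 reads (54) came from 1 old cell, and 1 cell held 90.1%, 50.2% and 50.8% of the Cnn2 reads in both young sums and the old sum of experiment 2. Without it Cnn2 was at 24.1 CPM in place of 48.5 in the young and at 13.9 CPM in place of 28.3 in the old sum of experiment 2. Tpm2 rested on 2 and 1 young cells and on 0 and 1 old cells. Acta2 rested on 3 and 7 newborn cells, 2 and 0 young cells and 1 and 3 old cells, and without its top cell the newborn level was 3.88 and 56.8 CPM in place of 14.7 and 94.7. In newborn cells, by contrast, no cell held over 10.6% of the Tpm2, 13.6% of the Myl9 or 15.3% of the Tagln reads of a sum. The adult levels of Acta2, Tagln, Tpm2 and Actn1 thus describe a handful of cells, and the newborn ones of Tagln, Tpm2 and Myl9 many.

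The rare Acta2 cells carried fibroblast genes and few mural ones. All 10 newborn, 2 young and 4 old cells with a read carried each of the 5 fibroblast genes, none had reads of Cspg4 or Mcam, and none had 2 or more mural markers. Of the 10 newborn cells 3 also had Tagln reads and 3 had reads of Actg2, the smooth-muscle gamma-actin, which had 0 reads in all adult sums. The 2 cells with the most Acta2 reads, 5396 and 4260, were newborn cells of experiment 2 and had reads of all 8 other members. One of them had 230 reads of Sox18, an endothelial and hair follicle gene. No adult cell with an Acta2 read had a Tagln read.

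The number of members read in the same cell was higher in newborn cells. This follows largely from the shares of cells given above and is no separate result. Actn1 is included, and newborn cells also had more genes per cell in each experiment. No such number was computed for other sets of genes. The median was 3 and 4 of 9 members in newborn cells and 1 in each adult sum. 6 or more members were read in 10 and 9 newborn cells and in 0 adult cells, where the highest number was 4. No member was read in 3 and 2 newborn cells, 41 and 16 young cells and 31 and 26 old cells.

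The ages were also compared within plates, which each carried all 3 ages. Newborn cells had the higher level than young cells on 9 of 9 plates for Tagln, Myl9, Tpm2, Actn1, Cnn2 and Cald1, on 7 for Cnn3, on 6 for Acta2 and on 3 for Tpm1. Against old cells they were higher on 9 plates for Tagln, Myl9, Tpm2, Cnn2 and Cnn3, on 8 for Actn1 and Cald1, on 7 for Acta2 and on 5 for Tpm1. For Myl9 the plates spanned 144 to 431 CPM in newborn, 18.2 to 121 CPM in young ones and 0 to 103 CPM in old cells. Plates of an experiment may share animals, so they are not counted as replicates. The share of all tested genes with such plate counts was not computed. Actn1, with no reads in young cells, could not be lower in newborn than in young cells on any plate.

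Cells with reads of 2 or more of 8 mural markers numbered 0 and 2 in newborn, 1 and 8 in young sums and 1 and 2 in old sums. The newborn ones held 0 Myl9 reads and those of experiment 2 held 496 reads in young and 326 in old sums, so leaving them out could not lower the newborn reads of Myl9, and its log2 fold change became -2.66 to young and -3.09 to old (edgeR adjusted p = 0.0443 and 0.0283). Tagln, whose 80 reads in the young sum of experiment 2 all came from such a cell, had 0 reads in the newborn ones. Leaving these cells out thus set that young sum to 0 and took away no newborn reads, so the gap in reads did not narrow. The unadjusted p of Tagln still went from 0.00899 to 0.101 in young and from 0.0113 to 0.133 in old against newborn sums (edgeR quasi-likelihood test). Cells with reads of at least 3 of 7 cell cycle genes were found only among newborn cells, 22 and 10 of them. Without these the log2 fold change of Myl9 was -2.79 and -3.21 (edgeR adjusted p = 0.0471 and 0.0312).

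Within an age and experiment co-variation of the members over cells was weak. Spearman's rho had a median of 0.04 and 0.09 over the 36 pairs in newborn cells (91 to 158 cells per sum over all ages, thinned reads). In adult sums, where pairs with a gene at 0 have no rho, it was -0.01 (28 pairs) and 0.07 (21 pairs) in young cells and -0.02 and -0.02 (28 pairs each) in old ones. The median over all pairs of 2020 widely read genes was 0.01 to 0.02, and their 95th percentile 0.16 to 0.21. Of the members only Tpm1, Cnn3 and Cald1 are among these genes, so most member pairs hold genes read in fewer cells. The pair with the highest median was Myl9 and Cnn2, at 0.14 over the 6 sums with a range from -0.05 to 0.27. Tagln and Cnn2 reached 0.38 in newborn cells of experiment 2, with 14 cells that had both, and 0.09 in newborn cells of experiment 1. Of the 15 pairs with a rho in all 6 sums 0 were positive in all of them. At this sparsity such values are no finding. The points of a sum share plates, depth and the number of genes per cell, with which the mean rank of the 9 members had a rho of 0.13 to 0.38.

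**Figure D4:**
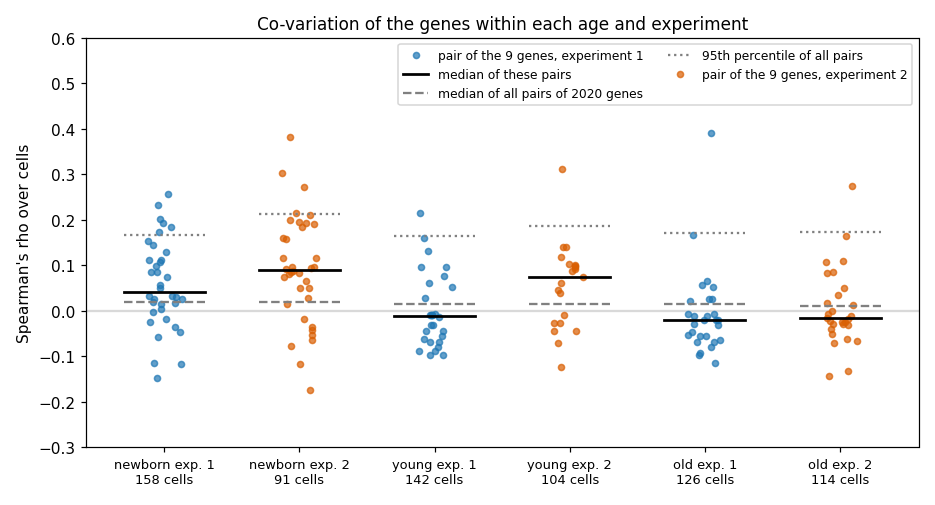
Spearman's rho of each pair of the 9 genes over the cells of 1 age and experiment (vertical axis), with the median of the pairs as a solid bar and the median and 95th percentile over all pairs of 2020 genes as dashed and dotted bars. Most points lie between -0.15 and 0.2, and the medians of the members lie near those of all pairs.

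The genes whose reads went most with the mean rank of the 9 members within sums were Gm42928 (mean rho 0.37 over the 6 sums), Actb (0.28), Atp5b (0.19), Gapdh (0.19), Tpm4 (0.18), Eif5a, Copz1, Gm17494, Fam104a and Uqcrq (0.16 to 0.17). Gm42928 lies on the opposite strand within Cnn3 exons, and each of the 35 to 100 cells per sum with its reads also had Cnn3 reads (rho of the pair 0.67 to 0.79), so without strand its reads cannot be told apart from those of Cnn3. Actb, cytoplasmic beta-actin, ranged from 0.08 in old cells of experiment 2 to 0.49 in newborn cells of experiment 1. Tpm4, a further tropomyosin, ranged from 0.08 to 0.27. Only the 2020 widely read genes were compared, which hold Tpm1, Cnn3 and Cald1 of the members. The mean rho of these members with the mean rank was 0.55, 0.50 and 0.48. Acta2, Tagln, Tpm2 and Actn1, read in few adult cells, could add little to the mean rank there. The genes named above thus need not follow all 9 members.

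Around the 9 genes, few genes of the wider actin and myosin machinery passed the test, as was so for all genes. Of 16684 tested genes 0.719% were called higher and 0.0599% lower in young against newborn sums. In old against newborn sums these shares were 0.797% and 0.138%. At such shares 0 calls in a short list are no result about that list. None of the 5 tested non-muscle myosin subunits passed in any comparison (median log2 fold change -0.45 to young and -0.24 to old against newborn). Myl12a and Myl12b, the regulatory light chains of non-muscle myosin and close relatives of Myl9, were at 1098 and 699 and at 262 and 192 CPM in newborn sums. In young sums they were at 759 and 552 and at 354 and 331 CPM, in old sums at 762 and 757 and at 353 and 412 CPM (edgeR adjusted p of at least 0.243). Myl6, the essential light chain, was at 1070 and 687 CPM in newborn, 595 and 442 CPM in young ones and 527 and 571 CPM in old sums. Differences between these genes and Myl9 were not tested.

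None of the 7 cytoskeletal actin and related genes passed (median -0.52 and -0.72). Actb was at 4726 and 4587 CPM in newborn, 3796 and 2699 CPM in young ones and 2789 and 2864 CPM in old sums, Actg1 had log2 fold changes of -0.06 and -0.50, and Tpm4 of -0.67 and -0.97.

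SRF and its coactivators were scarce at every age, and 0 of 4 passed. Srf was at 13.3 and 24.2 CPM in newborn, 6.48 and 6.41 CPM in young ones and 3.29 and 9.75 CPM in old sums. Mrtfb had log2 fold changes of -0.50 and -1.18 and Mrtfa of 0.26 and -4.24. Myocd, named after its values were seen, was at 6.54 and 5.83 CPM in newborn sums, from 1.90% and 1.10% of the cells, and at 0 in all adult sums (edgeR adjusted p = 0.258 and 0.223). Of 14 further SRF targets and focal adhesion genes 0 passed (median -0.54 and -0.79). Ilk, an adhesion kinase scaffold, had log2 fold changes of -0.61 and -0.84, Flna, the actin crosslinker filamin A, of -1.11 and -0.94 and Fermt2 of -0.28 and -0.99.

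A gene that cuts actin filaments was called higher in adults. Gsn, gelsolin, which severs and caps filaments, rose from 307 and 361 CPM in newborn to 11791 and 13650 CPM in young ones and 11216 and 11742 CPM in old sums. Its log2 fold change was 5.25 ± 0.20 and 5.10 ± 0.20 (edgeR adjusted p = 0.00827 and 0.00537), with reads in 37.3% and 58.2% of newborn cells and at least 99.1% of the cells of each adult sum. The call to young was lost without any 1 of the 4 adult sums and the call to old without either old sum. Its log2 fold change moved little when 1 sum was left out, to between 5.14 and 5.38 for young and between 4.99 and 5.23 for old sums. Both calls held with experiment as a block (edgeR adjusted p = 0.0216 and 0.0234). Gsn was the only 1 of 10 actin turnover genes to pass (median -0.09 and 0.56). Of 15 genes of the myofibroblast matrix and TGF-beta, Col3a1, a fibrillar collagen, fell by 2.85 ± 0.16 on the log2 scale from newborn to old sums (edgeR adjusted p = 0.00785), from 26592 and 23120 to 3613 and 3270 CPM, and the other 14 did not pass in any comparison (median of the list 0.48 and -1.31). The Col3a1 call was lost without either old sum or the young sum of experiment 1, and held with experiment as a block (edgeR adjusted p = 0.0250). With 1 sum left out its log2 fold change was -2.95 to -2.75.

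**Figure D5:**
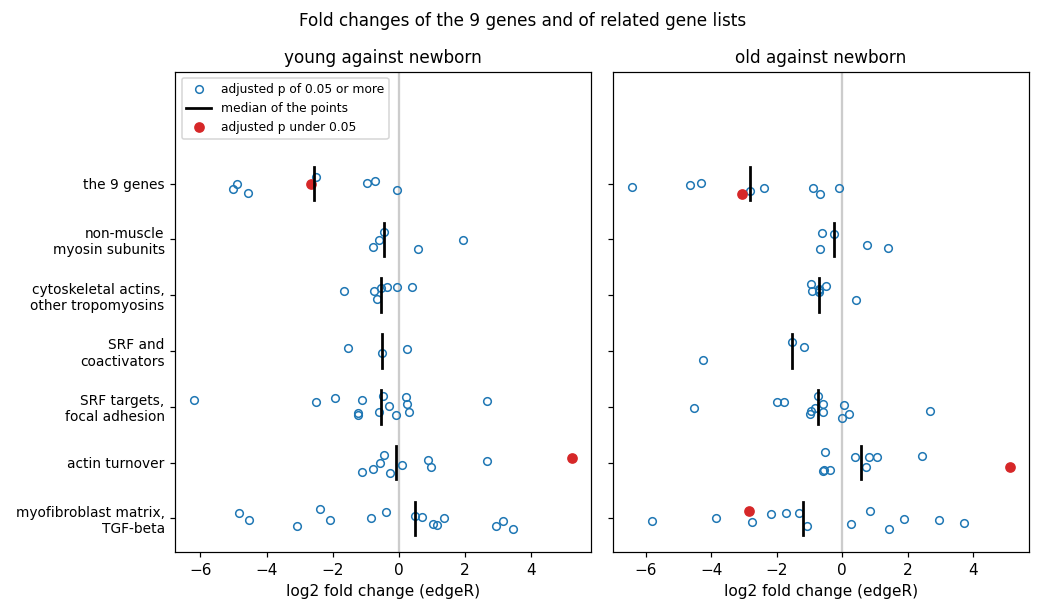
Log2 fold changes (horizontal axis) of the 9 genes and of 6 related lists, 1 point per gene, for young (left) and old (right) against newborn sums, filled where the edgeR adjusted p was under 0.05, with a bar at the median of the points drawn. Genes at 0 in an age (Actn1 and Myocd on the left, Myocd, Fhl2 and Tnc on the right) are not drawn, and the filled points are Myl9, Gsn and Col3a1.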

How the data were processed

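Raw read counts per gene and cell were used as deposited by the authors, 1 table per plate. Per the submitters' processing notes, the genome build was GRCm38 and FastQC was run. The aligner, the counting program and its strand setting: not given in the sources used here. Of 1049 labelled columns 5 held no values and 1044 were used. 2 pairs of plates with well-by-well correlations of at least 0.994 (at most 0.430 for other pairs) were taken as repeat runs and added, which gave 861 wells. Cells were kept with at least 50000 reads, at least 1000 genes and at most 25% mitochondrial reads. Symbols, exon lengths and overlaps came from GENCODE M21 (51633 of 51777 genes matched).

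Counts were summed per age and experiment and tested with edgeR 4.0.16 in R 4.3.3 (TMM, filterByExpr, robust quasi-likelihood fit over all 6 sums, Benjamini-Hochberg over 16684 genes, threshold 0.05). The coefficient of biological variation was 1.13 with 3 residual degrees of freedom. Each experiment is a set of plates that held all 3 ages, so its number marks plates shared by the ages. Sums of 1 experiment deviated together at correlations of only -1.7e-04, 0.0107 and 0.0125, and the fit with experiment as a replicate block is given where it changes a call. SE is the absolute log2 fold change over the square root of F. Alternatives used DESeq2 1.42.0 and limma 3.58.1, other scaling, filters and cell sets. Shares and correlations used cells thinned with seed 34 (scipy 1.17.1). The members and lists were chosen with earlier results of these data known. The text names all 9 members, of each list the genes past the threshold or otherwise the 3 with the highest mean CPM, and the 10 genes most like the members. The genes of 1 further list are not reported here. No doublet caller was run, since cells were sorted singly.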

Additional observations from a re-analysis of the deposited data

How the results depend on the processing

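With experiment as a replicate block, genes called were 25 (young against newborn) and 51 (old against newborn) in place of 130 and 156, and members called 0 and 0. Of the calls on Myl9, Gsn and Col3a1 it ended those on Myl9. Leaving out 1 sum at a time called 0 to 42 and 0 to 47 genes and 0 to 0 members, and in old against young 3 to 5 members had a fold change below 0. DESeq2 called 2380, 1048 and 2850 genes (young against newborn, old against young, old against newborn) and 6, 0 and 6 members (Actn1 included in the first). Limma on mean log2(CPM + 1) called 1078, 5 and 1432 genes, 7, 0 and 7 members, and had 5 members below 0 in old against young. Thinned sums called 256 and 290 genes against newborn, and without the low-count filter 2 genes passed in old against young. Scaling by library size only moved the median of all genes to -0.49 (young) and -0.44 (old) against newborn.

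Reversals concerned uncalled values near 0, and the cause was not tested. For Tpm1 these were 0.0126 with the looser cell filter (young against newborn) and, in old against young, 0.0290 by library size only and 0.0140 without cells with mural markers. Leaving out 1 sum at a time gave it -0.40 to 0.38 (young against newborn), -0.43 to 0.34 (old against newborn) and -0.21 to 0.16 (old against young). In old against young it gave Tagln -1.02 to 1.49, Cnn2 -0.68 to 2.04, Cnn3 -0.28 to 0.48 and Cald1 -0.23 to 0.23. There Cnn3 turned to -0.22 with limma, and Cald1 to -0.12 with thinned sums, -0.53 with limma and -0.0928 with the deeper runs only. Leaving out the cell with the most reads moved 23 of 49 CPM values by at least 1 SD of the 2 sums of an age. This SD was 0.131 CPM for Myl9 in young and 56.5 CPM for Acta2 in newborn sums. The count thus depends on how close 2 sums lay and does not measure dependence on single cells. Shares stayed inside their intervals in 160 of 162 alternatives, and all 72 alternative pair medians of rho moved by less than 1 SD of the rho over the sums. Adult values of Actn1, Acta2, Tagln and Tpm2 rest on 0 to 3 cells per sum.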

Other observations

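Counts of the contractile genes came almost only in even numbers. Every count above 0 in a kept cell was even for Acta2 (16 counts), Myl9 (178), Tpm1 (280), Tpm2 (107), Actn1 (33), Cnn2 (97) and Cald1 (389). Tagln had 25 even and 31 odd counts and Cnn3 224 even and 161 odd ones, and the exons of both overlap those of a gene on the opposite strand. Actn1 exons overlap such genes too. Among all genes with at least 30 counts above 0, 63.1% of the 5930 genes without exon overlap had even counts only, against 11.8% of the 3661 genes with overlap. The cause was not tested. For most of these genes the smallest step was thus 2 counts, and a floor of 3 reads is close to that step.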
